A study of Mus musculus with 18 samples.

Results

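The genes described here encode the subunits of oxidative phosphorylation, from the nucleus and from mitochondrial DNA. They were chosen by symbol (Nduf with a letter a, b, c, s or v and a number, Sdh, Uqcr, Cyc1, Cox with a number from 4 to 8 and a letter a, b or c, Atp5, and the protein genes of mitochondrial DNA), among protein-coding genes with a mean of at least 5 CPM (counts scaled to libraries of equal size) over all 18 libraries. Of 109 matching symbols 97 were protein-coding, and 89 of these were members, out of 54232 genes listed for every library. Nuclear DNA encodes 76 of them. Members were assigned to complexes by symbol alone, here and below, which need not match the place of every protein. That gave 36 of complex I, 4 of complex II, 9 of complex III, 11 of complex IV and 16 of complex V. Mitochondrial DNA encodes the other 13, of which 7 belong to complex I, 1 to complex III, 3 to complex IV and 2 to complex V. Of the 8 protein-coding genes below the minimum, 3 were at 0 in every library. Just inside the minimum was Cox7a1, the isoform of a complex IV subunit known from heart and skeletal muscle, at 6.45 CPM, and just outside was Atp5s, an assembly factor of complex V, at 4.94 CPM. The symbol rule leaves out Cox4i1, a complex IV subunit, and Ndufab1, the acyl carrier protein in complex I, and neither passed the test with any of the 4 stimuli.

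Complexes I and II take electrons from NADH and from succinate and pass them to ubiquinone, complex III passes them on to cytochrome c, and complex IV passes them to oxygen. Complexes I, III and IV move protons across the inner mitochondrial membrane, and complex V, the ATP synthase, uses their return to make ATP. Every complex except complex II is built from products of both genomes, which are transcribed and translated by separate machineries. Eosinophils are granulocytes known from allergic and parasitic disease.

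The study asked how mouse eosinophils respond to stimuli of Type 1 and Type 2 immunity. The cells, of C57BL/6 background, were lavaged from the peritoneum of Il5-transgenic mice, whose T cells overproduce this eosinophil growth factor, so they may differ from eosinophils of mice without it. Beads against Thy1.2 and B220 took out T and B cells. They were left unstimulated or cultured for 18 hours with heat-inactivated E. coli, with IFN-γ at 50 ng per ml, with IFN-γ and E. coli together, or with IL-4 at 100 ng per ml. Each stimulated group has 3 libraries and the unstimulated group 6, whose culture time is not given, and neither age nor sex is stated. The libraries fall into separate sets by the layout of their count files. One, called here the Type 1 set, joins the first unstimulated libraries, a to c, to the 9 libraries with E. coli, IFN-γ or both. The other, the IL-4 set, joins libraries d to f to those with IL-4. Every stimulus was compared only with unstimulated libraries of its own set. The study calls its replicates biological, but does not state whether they came from separate mice or cultures, so each p measures the spread between these samples. The libraries are bulk RNA, in which fewer cells of a type and less RNA per cell cannot be told apart.

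Depth differed between the sets. Counts on genes were 2419241, 1562034 and 2211861 in unstimulated libraries a to c. They were 2318235, 2734041 and 1980073 with E. coli, 1859508, 2006059 and 1654831 with IFN-γ, and 1523808, 1970637 and 1719468 with both stimuli. The IL-4 set was deeper, with 3625036, 6482289 and 5294968 in unstimulated libraries d to f and 5121421, 5909700 and 3827767 with IL-4. Levels below are CPM normalized by edgeR's TMM method, and calls are those of edgeR's quasi-likelihood test, adjusted by Benjamini-Hochberg over all genes tested (9883 and 10556 in the sets), at an adjusted p under 0.05. "Rose" and "fell" are used for called genes alone, and a background share is the percentage of all tested genes called in the same direction. The study's methods name a protocol that counts 3′ ends, so levels are not compared between genes.

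Nuclear subunits took 1.23%, 1.35% and 1.11% of the counts in unstimulated libraries a to c. The share was 1.26%, 1.29% and 1.22% with E. coli, 1.10%, 1.02% and 0.998% with IFN-γ, and 0.875%, 1.01% and 1.03% with both stimuli. Every library with IFN-γ, alone or with E. coli, thus lay below every unstimulated library of its set, while the E. coli libraries lay among them. This holds for shares of library totals. By TMM level the sum of every complex with IFN-γ alone overlapped the unstimulated sums. With both stimuli the sums of all complexes but complex II overlapped them. Libraries d to f gave 0.656%, 0.715% and 0.684% and those with IL-4 gave 0.638%, 0.642% and 0.678%, so these groups overlapped. Subunits from mitochondrial DNA took 1.40%, 1.91% and 1.46% without stimulus in the Type 1 set and 1.93%, 1.67% and 1.82% with both stimuli, again with overlap.

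The 13 mitochondrially encoded subunits were not counted alike in the sets. In the Type 1 set the count of mt-Co1, which encodes the catalytic subunit of complex IV, lay between 3891 and 4064 in every library, while the library totals ran from 1523808 to 2734041. The values sit just under 4096, the number of different identifiers of 6 bases, and 8 of the 13 were above 2048, which is 50% of it, in every library. These 8 are mt-Nd1, mt-Nd2, mt-Nd4, mt-Cytb, mt-Co1, mt-Co2, mt-Co3 and mt-Atp6. The other 5 were not above 2048 in every library, with counts of 848 to 2087 for mt-Nd3, 916 to 1931 for mt-Nd5, 141 to 305 for mt-Nd4l, 68 to 130 for mt-Atp8 and 1 to 162 for mt-Nd6. Of these only mt-Nd3 passed 2048 at all, in replicate 3 of both stimuli. Among nuclear members only Cox8a, a small complex IV subunit, passed 2048 in a library.

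**Figure D1:**
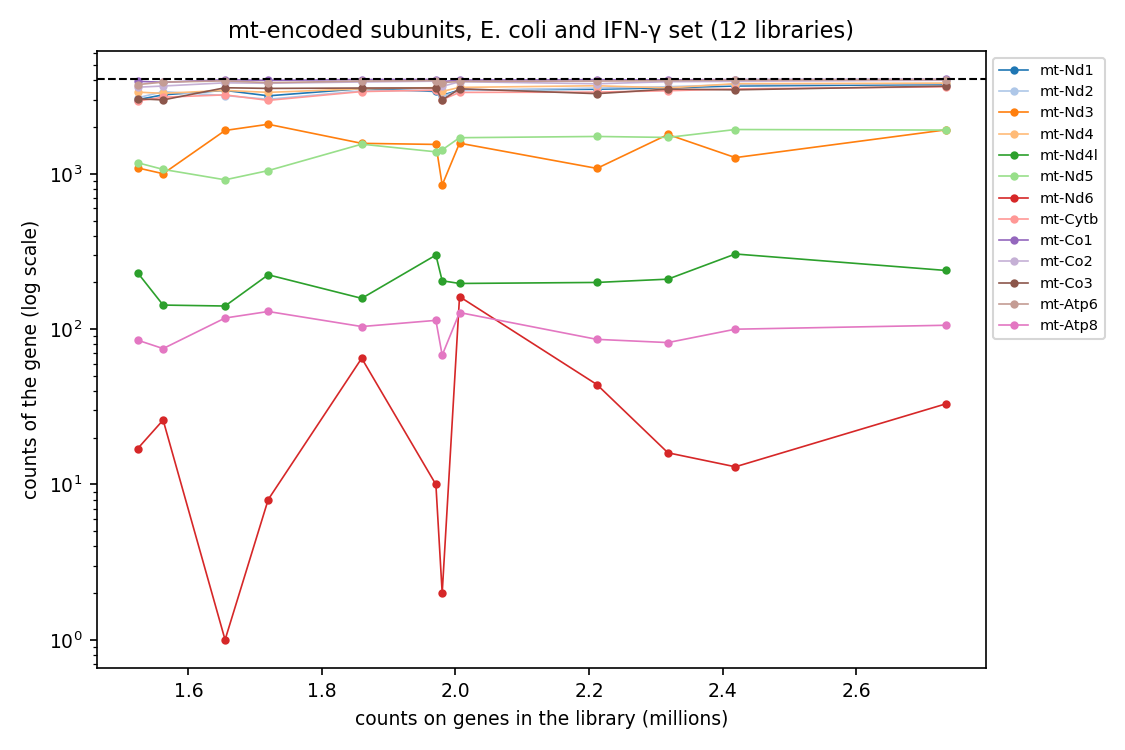
Counts of the 13 mitochondrially encoded subunits (vertical axis, log scale) against the library total (horizontal axis) in the 12 libraries of the Type 1 set, with a dashed line at 4096. The highest genes run flat just under the line at every depth, and mt-Atp8, mt-Nd4l and mt-Nd6 lie far below it.

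With E. coli alone few nuclear members were called, and 6 of the 8 that rose belong to complexes III and IV. Of 76 nuclear members 8 rose (10.5%, background share 13.5%) and 3 fell (3.95%, background share 16.7%), so calls were no more frequent than among all genes, and falls were rarer. Complex III had 3 of 9 members up and complex IV 3 of 11, while complex I had 1 of 36 up and 2 down, complex V 1 of 16 up and complex II none of 4. By median log2 fold change the complexes lay at 0.17 (III), 0.20 (IV), 0.11 (V), -0.00 (I) and -0.06 (II), beside -0.02 for all genes. The summed level of complex III was 974 ± 103 CPM (SD, n = 3) unstimulated and 1119 ± 21.2 with E. coli, without overlap. The counts rest on single unstimulated libraries. Without library a 2 members rose and 1 fell, without b 14 rose and 1 fell, and without c 5 rose and 9 fell. Without E. coli replicate 1 or 2, 1 member fell. Rises in complex III became 0 without a and 1 without c, rises in complex IV 8 without b, and the rise in complex V was lost without a. In complex I the falls became 0 without a, b or E. coli replicate 1 or 2, 5 without c, and 1 without E. coli replicate 3 or any IFN-γ library.

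Uqcrfs1, the Rieske iron-sulfur subunit of complex III, stood at 94.6, 106 and 109 CPM unstimulated and at 137, 129 and 139 with E. coli. All 3 E. coli libraries were above all unstimulated ones, with a log2 fold change of 0.39 (adjusted p = 0.008889), a call lost only without unstimulated library a. Cyc1, the heme subunit that hands electrons to cytochrome c, went from 61.5, 73.5 and 58.2 to 83.6, 89.3 and 93.8 CPM. Its groups did not overlap either, and it rose by 0.47 ± 0.13 (SE) on the log2 scale (adjusted p = 0.01011), a call lost without library a or c. Uqcrb, a subunit at the ubiquinone site, was the remaining riser of complex III, at 0.36 on the log2 scale, with a call lost without any unstimulated library, E. coli replicate 1 or 2, IFN-γ replicate 1 or replicate 2 of both stimuli.

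In complex IV, genes of the subunit 7a family were called in both directions. Cox7a2, the form found in most tissues, read 80.1, 91.3 and 71.9 CPM unstimulated and 126, 113 and 113 with E. coli. It rose in all 3 libraries by 0.54 on the log2 scale (adjusted p = 0.005883), and was called in 21 of 21 alternative settings without a fold threshold. Cox7a1, its muscle counterpart, had 14, 4 and 3 counts unstimulated and 23, 31 and 23 with E. coli, so its rise of 1.71 ± 0.41 (SE) on the log2 scale (adjusted p = 0.00343) rests on few counts, without overlap. Cox7a2l, which encodes a related protein, fell from 204, 214 and 183 to 129, 120 and 135 CPM. That is -0.65 ± 0.11 (SE) on the log2 scale (adjusted p = 0.0001285), lower in all 3 libraries. Cox5a, which contacts the catalytic core from the matrix side, rose by 0.40, a call lost without unstimulated library a or E. coli replicate 2.

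In complex V the catalytic subunit Atp5b stood at 253, 305 and 273 CPM unstimulated and at 368, 325 and 389 with E. coli. All 3 stimulated libraries were higher, by 0.38 ± 0.11 (SE) on the log2 scale (adjusted p = 0.01127), a call lost without unstimulated library a. In complex I, Ndufa12, an accessory subunit added late in assembly, went from 50.7, 62.7 and 38.4 to 75.5, 66.5 and 71.1 CPM. It rose by 0.51 ± 0.17 (SE) without overlap (adjusted p = 0.02704), and lost the call without unstimulated library a or c or E. coli replicate 1. Ndufs6, a zinc-binding accessory subunit of the NADH-oxidizing arm, was at 87.9, 116 and 69 CPM and came to 62, 64.2 and 58.3. It fell by 0.54 on the log2 scale without overlap (adjusted p = 0.02209), but the call was lost without unstimulated library a or b or any E. coli library, over a range of -0.71 to -0.33. Ndufb10, an accessory subunit of the membrane arm, fell by 0.41 on the log2 scale (adjusted p = 0.03717), from 113, 116 and 97.5 to 83.2, 75.6 and 86.9 CPM without overlap, a call lost without unstimulated library a or b, E. coli replicate 1 or 2 or any IFN-γ library.

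None of the 13 mitochondrially encoded members was called with E. coli, by edgeR in either direction, with 0 at an unadjusted p under 0.05 and 0 by DESeq2. Their median log2 fold change was -0.19, and without single libraries it ran from -0.29 to 0.04. The values were -0.18 for mt-Nd1, -0.22 for mt-Nd2, 0.21 for mt-Nd3, -0.19 for mt-Nd4, -0.12 for mt-Nd4l, -0.05 for mt-Nd5 and -0.92 for mt-Nd6, all of complex I. They were -0.19 for mt-Cytb of complex III, -0.19, -0.18 and -0.14 for mt-Co1, mt-Co2 and mt-Co3 of complex IV, and -0.20 and -0.21 for mt-Atp6 and mt-Atp8 of complex V.

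With IFN-γ alone 9 of the 13 nuclear members that fell belong to complex I, and 3 mitochondrially encoded members rose. Of 76 nuclear members 3 rose (3.95%, background share 15.6%) and 13 fell (17.1%, background share 16). The share of falls over all nuclear members was thus that of any gene, while in complex I it was 9 of 36 (25%). Complex V had 3 falls among 16, complex III 1 rise and 1 fall, complex IV 1 rise and complex II no call, by edgeR or DESeq2, with 1 member higher at an unadjusted p under 0.05. Only 3 of the 36 complex I members had a positive log2 fold change. The median was -0.26 for complex I, -0.11 for II, 0.01 for III, 0.11 for IV and -0.06 for V, beside -0.03 for all genes. Falls among nuclear members numbered 5 without unstimulated library a or IFN-γ replicate 3, and 4 without unstimulated library b or IFN-γ replicate 2. In complex I they numbered 2 without a, b or IFN-γ replicate 3 and 3 without IFN-γ replicate 2. Rises numbered 5 without unstimulated library b or without replicate 3 of both stimuli, and falls in complex V 1 without unstimulated library b or IFN-γ replicate 2.

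Ndufb7, an accessory subunit on the outer face of the complex I membrane arm, was at 77.1, 98.9 and 68.6 CPM unstimulated and at 53.7, 51.3 and 46.4 with IFN-γ. All IFN-γ libraries were lower, with a log2 fold change of -0.67 ± 0.16 (SE, adjusted p = 0.002982). Ndufv3, an accessory subunit next to the NADH-binding site, went the other way, from 131, 136 and 116 to 175, 192 and 203 CPM. It rose by 0.58 ± 0.13 (SE) on the log2 scale without overlap (adjusted p = 0.002064), the single rise among nuclear members of complex I. Ndufb10 fell again, to 76.7, 77.9 and 73.2 CPM, below every unstimulated library, at -0.51 on the log2 scale. Ndufs6 fell to 66, 57.9 and 65.4 CPM, at -0.51, also without overlap. The other falls in complex I were Ndufb5 at -0.58, Ndufb8 at -0.56, Ndufs7, a core subunit of the ubiquinone site, at -0.48, Ndufa13 at -0.45, Ndufb3 at -0.44 and Ndufa7 at -0.43. Leaving out unstimulated library a ended the calls of all these except Ndufb7, Ndufv3 and Ndufb3, and leaving out b all except Ndufb7, Ndufv3 and Ndufb8. Without IFN-γ replicate 3 every one but Ndufb7, Ndufv3 and Ndufb3 was lost, without replicate 2 every one but these and Ndufb10, and without replicate 1 Ndufs6 and Ndufb5.

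Uqcr11, the smallest subunit of complex III, was low throughout, at 31.7, 37.4 and 21.5 CPM unstimulated and 16.2, 14.4 and 19.6 with IFN-γ. It fell by 0.84 on the log2 scale in all 3 libraries (adjusted p = 0.00788), a call lost without IFN-γ replicate 2. Uqcr10, another small subunit of complex III, rose from 62.6, 76.7 and 61.9 to 91.2, 86.6 and 111 CPM. Its rise was 0.53 ± 0.15 (SE) on the log2 scale (adjusted p = 0.009952) without overlap. The call was lost without unstimulated library a or IFN-γ replicate 3. Cox7a2 stood at 116, 114 and 134 CPM with IFN-γ, above all unstimulated libraries, and rose by 0.59 ± 0.14 (SE, adjusted p = 0.003433), in 21 of 21 settings without a fold threshold. Atp5g1, one of the genes for the rotating ring of complex V, fell from 151, 187 and 138 to 125, 103 and 92.2 CPM. That is -0.56 ± 0.14 (SE) on the log2 scale (adjusted p = 0.005459), without overlap. Atp5k and Atp5c1, for a membrane subunit and for the central shaft of complex V, fell by 0.63 and 0.43 on the log2 scale. Either call was lost without unstimulated library b or IFN-γ replicate 2, and that of Atp5k also without unstimulated library a or IFN-γ replicate 1 or 3.

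Among the 13 mitochondrially encoded members 3 rose with IFN-γ (23.1%) and 0 fell, by edgeR or DESeq2, with 0 lower at an unadjusted p under 0.05. mt-Nd3, a membrane-arm subunit of complex I, was at 474, 636 and 448 CPM unstimulated and at 880, 808 and 1245 with IFN-γ. All 3 libraries were higher, by 0.92 ± 0.22 (SE) on the log2 scale (adjusted p = 0.00384). mt-Atp8, a short membrane subunit of complex V, went from 37.3, 47.5 and 35.5 to 58.2, 65.6 and 77.2 CPM. It rose without overlap by 0.75 ± 0.16 (SE, adjusted p = 0.001727). The remaining riser, mt-Co3, is among the genes near the count limit, had overlapping groups and a log2 fold change of 0.44 (adjusted p = 0.02998), and lost its call without unstimulated library a or c or IFN-γ replicate 1 or 3. Without unstimulated library b, the smallest of its group, 10 of the 13 were called higher. The values of those not called were 0.31 for mt-Nd1, 0.20 for mt-Nd2, 0.27 for mt-Nd4, -0.03 for mt-Nd4l, 0.15 for mt-Nd5, 1.70 for mt-Nd6, 0.29 for mt-Cytb, 0.31 for mt-Co1, 0.32 for mt-Co2 and 0.29 for mt-Atp6.

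With both stimuli 15 of the 21 nuclear members that fell belong to complex I, and every mitochondrially encoded member that was called rose. Of 76 nuclear members 5 rose (6.58%, background share 23.9%) and 21 fell (27.6%, background share 25.2), so falls over all nuclear members were again about as frequent as among all genes. In complex I 15 of 36 fell (41.7%) and 1 rose, and in complex V 5 of 16 fell (31.2%) and 1 rose. Complex III had 1 rise and 1 fall, complex IV 2 rises and complex II no call by edgeR or DESeq2 and none at an unadjusted p under 0.05. Of the mitochondrially encoded members 8 of 13 rose (61.5%), and 5 of these 8 had counts above 2048 in every library. A count held near a limit reads as a higher CPM in a smaller library, and the part of this in the rises was not tested. The median log2 fold change was -0.27 for complex I, -0.16 for II, 0.11 for III, 0.15 for IV, -0.10 for V and 0.42 for the mitochondrial genome, beside -0.04 for all genes. Summed over its 36 members, complex I was at 3444 ± 481 CPM (SD, n = 3) unstimulated and 2772 ± 365 with both stimuli, and these sums overlapped. Complex II was the only complex whose sum did not overlap, at 316 ± 27.8 CPM unstimulated and 287 ± 3.77 with both stimuli. The gap was narrow, from 290.8 as the highest sum with both stimuli to 293.2 as the lowest unstimulated one. Rises among nuclear members numbered 9 without unstimulated library b and 11 without replicate 1 of both stimuli, and falls in complex V 3 without either of these. Rises in complex IV became 4 without either, and 1 without unstimulated library c or replicate 2 of both stimuli.

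**Figure D2:**
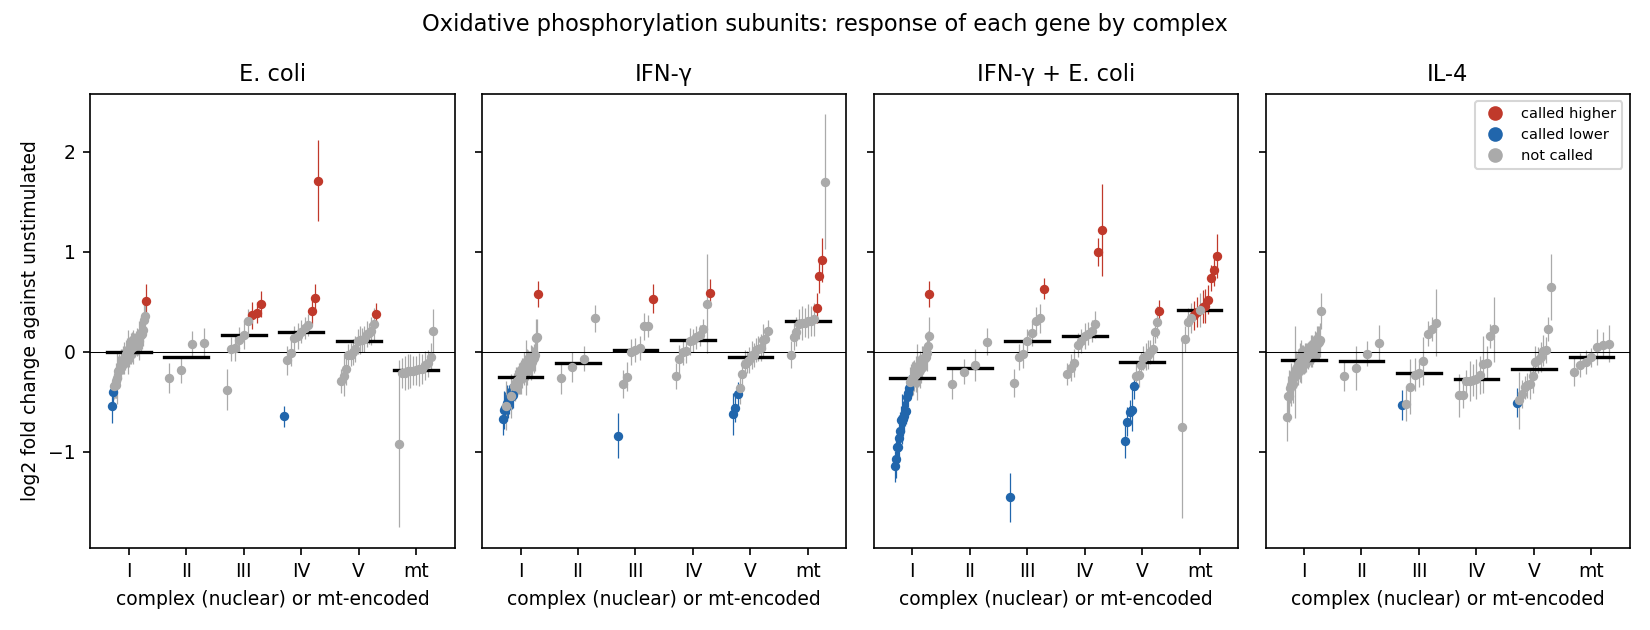
Log2 fold change against unstimulated cells (vertical axis) of each subunit, grouped by complex and by genome (horizontal axis), in a panel for each of the 4 stimuli, with red for higher, blue for lower, grey for not called, vertical lines for the SE and a black bar for the median. In the panels of IFN-γ and of both stimuli, the median bar of complex I lies lowest among the nuclear complexes, at -0.26 and -0.27.

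Scaling bears on these directions. Scaled by library totals in place of TMM, the median of all genes moved to -0.05 with E. coli, -0.21 with IFN-γ, -0.29 with both stimuli and 0.06 with IL-4. Relative to the median of all genes, which by construction takes out a shift common to all, complex I lay at -0.23 with both stimuli, complex III at 0.15, complex IV at 0.20 and the mitochondrial genome at 0.46. Of the 13 genes behind the last value, 8 were above 2048 counts in every library. Without subtracting the median of all genes, the medians of complexes III and IV changed sign under library totals, to -0.16 and -0.05 with IFN-γ and to -0.14 and -0.09 with both stimuli. No called member changed sign, but 6 of 34 calls with both stimuli were lost under library totals, those of mt-Nd4, mt-Cytb, mt-Co1, mt-Co2, Cox7a1 and Atp5b, and 2 of 19 with IFN-γ, those of mt-Co3 and Uqcr10. With E. coli that of Uqcrb was lost, and with IL-4 2 of 2, those of Uqcrc1 and Atp5b. Falls of nuclear members then numbered 46 of 76 with both stimuli, 31 with IFN-γ and 7 with E. coli, where 3676, 2448 and 1733 of all 9883 genes were called lower.

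Ndufb10 showed the lowest adjusted p of the complex I falls. Its level was 113, 116 and 97.5 CPM unstimulated, 83.2, 75.6 and 86.9 with E. coli, 76.7, 77.9 and 73.2 with IFN-γ, and 33.6, 51.5 and 60.7 with both stimuli. Every library with both stimuli was below every library of the other groups of the set. The log2 fold change was -1.15 ± 0.16 (SE, adjusted p = 7.82e-06) and the call was made in 21 of 21 settings without a fold threshold, over a range of -1.40 to -0.93. Ndufs6 went from 87.9, 116 and 69 to 29.9, 50.4 and 46.2 CPM. It fell by 1.07 on the log2 scale without overlap (adjusted p = 0.0001152), also in 21 of 21 such settings. Ndufb7 came to 38, 37.3 and 50.1 CPM, below all unstimulated libraries, at -0.95 (adjusted p = 9.869e-05).

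Other complex I members fell to differing degrees with both stimuli. Ndufs8, an iron-sulfur core subunit, was at 26.1, 28.5 and 23.1 CPM unstimulated and at 15.3, 10.4 and 17.1 with both stimuli. Its groups did not overlap, and it fell by 0.87 on the log2 scale (adjusted p = 0.005057). Ndufs7, which carries the last iron-sulfur cluster before ubiquinone, fell by 0.69. Ndufs1 and Ndufv1, of the NADH-oxidizing part, were not called, at -0.05 and -0.30. Falls among accessory subunits include Ndufa13 at -0.95, also known as a cell death regulator, Ndufb5 at -0.80, Ndufa5 at -0.67, Ndufb8 at -0.64, Ndufa3 at -0.60, Ndufb3 at -0.59, Ndufb4 at -0.45, Ndufa7 at -0.41 and Ndufa6 at -0.36. Calls were lost for Ndufa5 without unstimulated library a, for Ndufa6 without c, for these, Ndufa7 and Ndufb4 without b, for Ndufa5, Ndufa6 and Ndufa7 without replicate 1 of both stimuli, for Ndufa6 and Ndufa7 without its replicate 2, and for Ndufb4 without its replicate 3. The single rise among nuclear members of complex I is Ndufv3, at 156, 189 and 223 CPM against 131, 136 and 116 unstimulated, without overlap and by 0.57 ± 0.13 (SE, adjusted p = 0.001194).

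Complex II, which has no mitochondrially encoded subunit, had no called member with any stimulus by edgeR or DESeq2. Sdha, the flavin subunit that oxidizes succinate, was at 96.9, 103 and 88.8 CPM unstimulated and 89.1, 70.1 and 93 with both stimuli, with overlap. Its log2 fold changes were -0.19 with E. coli, -0.07 with IFN-γ, -0.20 with both and -0.02 with IL-4. Those of Sdhb, its iron-sulfur partner, were 0.07, 0.33, 0.10 and -0.24.

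In complex III, Uqcr11 reached its lowest level of this set with both stimuli, 8.76, 13.1 and 9.89 CPM. It fell by 1.46 on the log2 scale, in all 3 libraries (adjusted p = 8.155e-05). Uqcrfs1 rose at the same time to 150, 165 and 164 CPM, above every library of the other groups of the set. The log2 fold change was 0.63 ± 0.11 (SE, adjusted p = 9.28e-05), and 21 of 21 settings without a fold threshold called both genes. The core subunit Uqcrc1 and the heme subunit Cyc1 were not called, at -0.31 and -0.02.

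In complex IV, Cox7a2 read 134, 152 and 195 CPM with both stimuli against 80.1, 91.3 and 71.9 unstimulated. No libraries of these groups overlapped, and the log2 fold change was 0.99 ± 0.14 (SE, adjusted p = 1.028e-05), called in 21 of 21 settings without a fold threshold, over a range of 0.74 to 1.13. It was the only member called higher in each of the comparisons of E. coli, IFN-γ and both stimuli with unstimulated cells, and Ndufb10 and Ndufs6 were the only members called lower in each. These comparisons share unstimulated libraries a to c. Cox7a1 rose by 1.22 (adjusted p = 0.03432) with overlapping groups, 14, 4 and 3 counts against 6, 20 and 9, and lost the call without unstimulated library b or c or replicate 2 of both stimuli. Cox5a was not called, at 0.15.

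**Figure D3:**
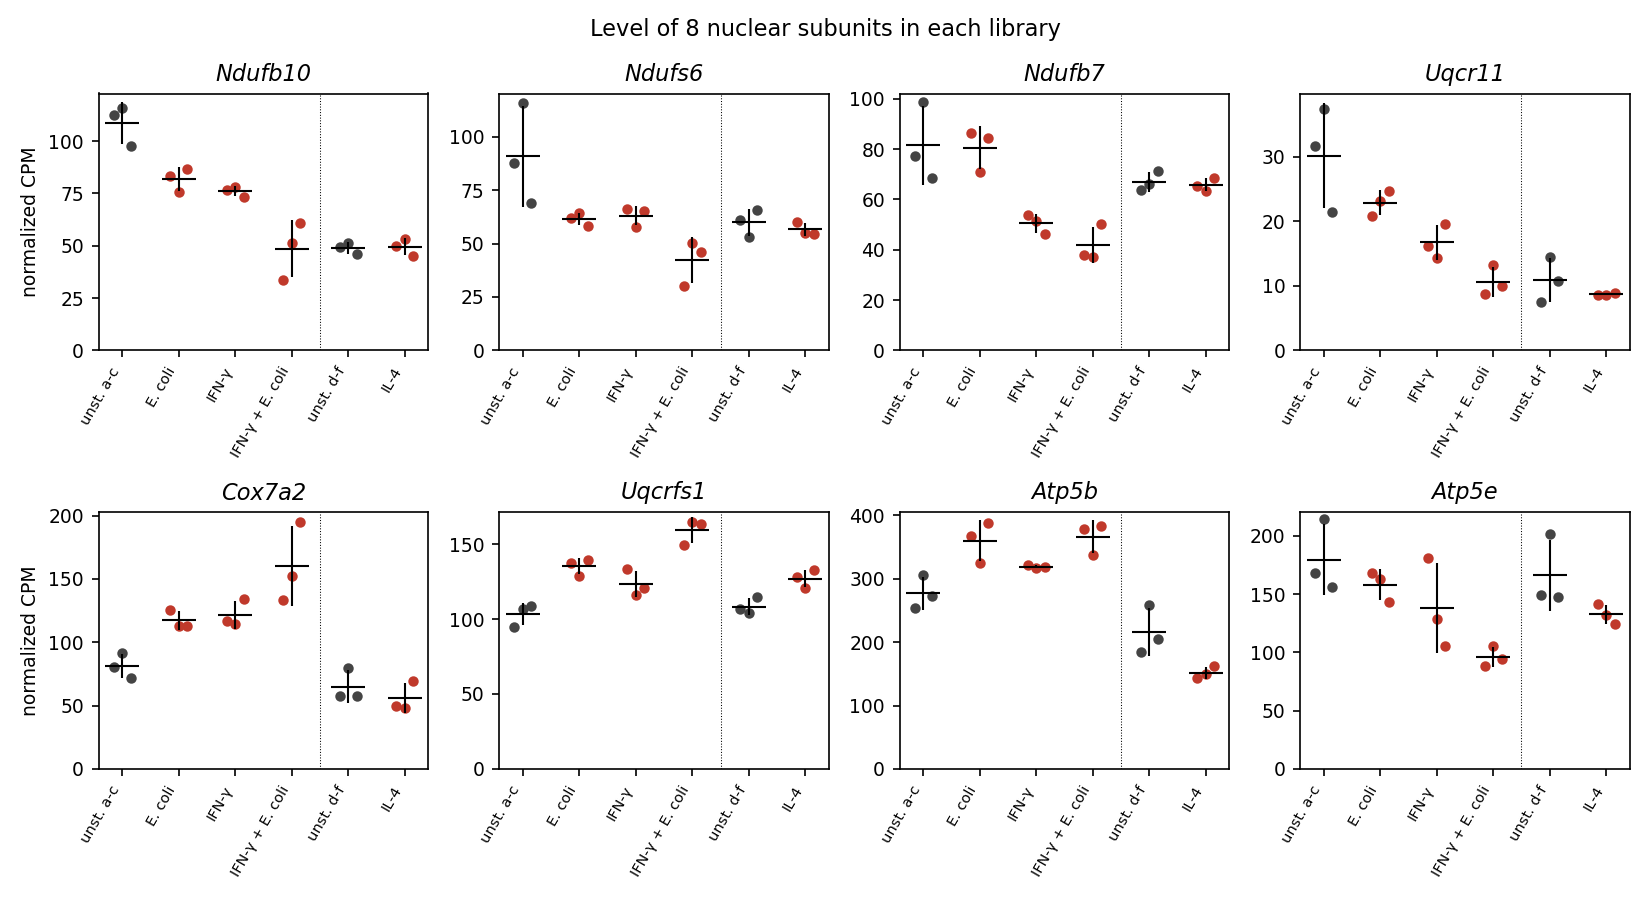
Level in CPM of 8 nuclear subunits in each of the 18 libraries (dots), by group, with bars for the mean and SD of each group and a dotted line between the sets. Left of that line Ndufb10 lies highest without stimulus and lowest with both stimuli, while Cox7a2 lies in the reverse order.

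In complex V, Atp5e, a subunit of the central stalk, was at 168, 214 and 157 CPM unstimulated and at 88.4, 105 and 94.3 with both stimuli. All 3 libraries were lower, by -0.89 ± 0.17 (SE) on the log2 scale (adjusted p = 0.0002245), in 21 of 21 settings without a fold threshold. Atp5b moved the other way, to 379, 338 and 384 CPM from 253, 305 and 273, without overlap. It rose by 0.41 ± 0.11 (SE, adjusted p = 0.004589). Atp5a1, which alternates with Atp5b around the head of the enzyme, was not called, at 0.19. The ring gene Atp5g1 fell by 0.70, Atp5c1 by 0.61, Atp5k by 0.58 and the second ring gene Atp5g2 by 0.35 on the log2 scale. The calls of Atp5k and Atp5g2 were lost without unstimulated library b or replicate 1 of both stimuli, that of Atp5k also without library a and that of Atp5g2 without IFN-γ replicate 2 and under DESeq2's size factors.

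Of the mitochondrially encoded genes, mt-Nd3 was at 798, 848 and 1376 CPM with both stimuli against 474, 636 and 448 unstimulated. It rose by 0.96 ± 0.22 (SE) without overlap (adjusted p = 0.001478). mt-Atp8 stood at 62.1, 62.5 and 85.7 CPM, above 37.3, 47.5 and 35.5, and rose by 0.82 ± 0.17 (SE, adjusted p = 0.0004444). mt-Nd4l, another membrane-arm subunit of complex I, went from 114, 90.6 and 82.6 to 169, 164 and 148 CPM. It too rose without overlap, by 0.74 (adjusted p = 0.0001362), and all alternatives without a fold threshold in which these 3 genes were tested made the same call. They lie below the count limit. The other 5 risers were near it, namely mt-Co3 at 0.52 ± 0.15 (SE, adjusted p = 0.006718, no overlap), mt-Co1 at 0.46, mt-Co2 at 0.45, mt-Nd4 at 0.40 and mt-Cytb at 0.36, the last 4 with overlapping groups. For those 4 the call was lost without unstimulated library a or c or without replicate 1 or 3 of both stimuli, so that 4 of the 13 rose in each of those fits, and that of mt-Cytb also without replicate 1 of E. coli or of IFN-γ or replicate 2 of both stimuli.

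Not called were mt-Atp6 at 0.42, mt-Nd1 at 0.34, mt-Nd2 at 0.29, mt-Nd5 at 0.13 and mt-Nd6, on the opposite strand of the others, at -0.76. For mt-Co1 the libraries read 1510, 2466 and 1669 CPM unstimulated and 2881, 2220 and 2640 with both stimuli, and its count in the library with 2466 CPM was that of the smallest unstimulated total. Corrected for collisions of identifiers, an alternative chosen after seeing the data, the counts gave 7 rises of 13 and a median of 0.27. Just under 4096 such a correction turns small differences in count into large ones, so it cannot settle the levels of the highest genes. With genes above 2048 counts in any library left out, mt-Nd3 among them, 2 of the 4 mitochondrially encoded genes tested were higher. That alternative was also chosen after seeing the data.

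The comparisons of both stimuli with each alone show where the second stimulus added to the first. Against IFN-γ alone 1 of 76 nuclear members was higher (1.32%, background share 6.25) and 4 were lower (5.26%, background share 5.98). Uqcrfs1 was higher by 0.37 (adjusted p = 0.03031), and among the lower were Ndufb10 at -0.63 (adjusted p = 0.01527), Cox7a2l at -0.45 and Ndufa13 at -0.50, each without overlap. Falls numbered 1 without IFN-γ replicate 1 or replicate 1 of both stimuli and 2 without its replicate 2, and Uqcrfs1 was not called without IFN-γ replicate 2 or 3 or replicate 2 or 3 of both stimuli. Without IFN-γ replicate 1 or replicate 1 of both stimuli, Ndufb10 and Ndufa13 lost their calls, and Ndufa13 also without replicate 2 of both stimuli. Rises were 2 without replicate 1 of both stimuli. Of the mitochondrially encoded members mt-Nd4l was higher by 0.77 (adjusted p = 0.0007573) without overlap. mt-Nd6 was lower at -2.46 (adjusted p = 0.0478), but its IFN-γ libraries held 65, 162 and 1 counts and the groups overlapped. The call was lost without any unstimulated library, any library of both stimuli, E. coli replicate 1 or IFN-γ replicate 1 or 2.

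Against E. coli alone 21 of 76 nuclear members were lower (27.6%, background share 15.3) and 3 higher (3.95%, background share 17.5). Scaled by library totals 51 were lower and 0 higher, where 2859 and 1097 of all 9883 genes were, and DESeq2 called 13 lower. In complex I 14 of 36 were lower, in complex V 4 of 16, in complex III 2 and in complex II 1, the last called in no fit that left out a library other than IFN-γ replicate 1 or 3 or replicate 2 of both stimuli. Ndufs8 at -0.98, Ndufb7 at -0.95, Ndufb10 at -0.74 and Ndufa12 at -0.69 led in complex I, Uqcr11 at -1.08 and Cyc1 at -0.50 in complex III, and Atp5g1 at -0.82 in complex V, all without overlap. Ndufv3 at 0.48, Cox7a2 at 0.45 and Cox7a2l at 0.42 were higher. Of the mitochondrially encoded members 11 of 13 were higher (84.6%), all but mt-Nd5 at 0.18 and mt-Nd6 at 0.16, with mt-Atp8 at 1.03 and mt-Nd4l at 0.86 as the largest. Of these 11, 8 are the genes near the count limit, and with genes above 2048 counts left out 2 of the 4 tested were higher. Every library with both stimuli had a smaller total than every E. coli library. A count held near a limit reads as a higher CPM in a smaller library, and the part of this in the rises was not tested. Cyc1 lost its call without replicate 1 of both stimuli, and Cox7a2 without E. coli replicate 2 or replicate 3 of both stimuli. Falls of nuclear members numbered 12, with 7 and 9 in complex I, without E. coli replicate 2 and without replicate 1 of both stimuli. Falls in complex V became 2 without E. coli replicate 1 or 3 or replicate 1 of both stimuli, and rises of mitochondrially encoded members 7 without E. coli replicate 2, the largest library of the set.

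The IL-4 set counts some members less fully. In it mt-Co2 and mt-Co3 were at 0 in all 6 libraries and mt-Nd3, mt-Nd4l, mt-Atp6 and mt-Atp8 at or near 0, while mt-Nd6 averaged 2478 CPM against 16.6 in the other set. It lies on the opposite strand and overlaps mt-Nd5 at its end, and whether either set was counted by strand is not stated. Near-identical copies elsewhere in the annotated transcripts (at least 95% identity over at least 200 bases) were found for 31 of the 89 members. The 22 nuclear members with a copy had a median of 50 CPM in the IL-4 set against 141 in the other, and for 7 of them the ratio was below 0.2. The 54 without a copy had 62.1 against 98.7, and for 4 the ratio was below 0.2. Atp5g1, with the copy Gm10039, averaged 1.75 CPM against 135, and Atp5g2 0.555 against 209. How far the copies account for this was not tested, and 73 nuclear and 7 mitochondrially encoded members were tested in the IL-4 set.

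With IL-4 nuclear members were rarely called. Of 73 none rose, by edgeR (background share 5.97) or by DESeq2, with 1 at an unadjusted p under 0.05, and 2 fell (2.74%, background share 4.35), with 11 at an unadjusted p under 0.05 and 3 by DESeq2. Uqcrc1, a core subunit of complex III, was at 62.5, 75.4 and 58.3 CPM in unstimulated libraries d to f and at 42.4, 47.4 and 46.1 with IL-4. It fell in all 3 libraries by 0.53 on the log2 scale (adjusted p = 0.04769). Atp5b went from 184, 258 and 204 to 143, 149 and 163 CPM. It fell without overlap, at -0.51 ± 0.14 (SE, adjusted p = 0.04927), and was the only member called in opposite directions by different stimuli. Neither call stood without unstimulated library f or any of the IL-4 libraries, each of which left 0 falls, and without d or e Uqcrc1 was not called, while 1 member rose without either.

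The medians with IL-4 were -0.08 for complex I, -0.09 for II, -0.21 for III, -0.27 for IV and -0.17 for V, beside 0.00 for all genes. Of the 11 complex IV members 2 had a positive log2 fold change, against 8 with each of the Type 1 stimuli. The summed level of complex V was 0.874 times the unstimulated one, without overlap, and those of the other complexes overlapped. Core subunits not called included Atp5a1 at -0.42, Cox5a at -0.44, Cyc1 at -0.23, Uqcrfs1 at 0.23, Ndufv1 at -0.17 and Ndufs1 at -0.08. None of the 7 mitochondrially encoded genes tested was called, by edgeR or DESeq2 or at an unadjusted p under 0.05, at -0.10 for mt-Nd1, -0.14 for mt-Nd2, 0.07 for mt-Nd4, 0.08 for mt-Nd5, 0.05 for mt-Nd6, -0.06 for mt-Cytb and -0.21 for mt-Co1.

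The difference between the IL-4 response and the response to both Type 1 stimuli was tested in a model of all 18 libraries. For 10 of 76 nuclear members (13.2%, background share 18.5) the IL-4 response was higher and for 9 (11.8%, background share 20.7) lower. Scaled by library totals 25 were higher and 3 lower, where 3177 and 1252 of all 10671 genes were, and the nuclear median changed sign to 0.36. With at least 10 counts in every library 17 were higher and 5 lower. Of the 10, 8 were complex I members. Of the 9, 4 were complex IV members, 2 complex III, 2 complex V and 1 complex I. The higher ones numbered 6 without unstimulated library a or b, and the lower ones 14 without d. Those of complex I became 5 without a, b or replicate 2 of both stimuli, and the lower ones of complex III 4 without d and 1 without a.

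Genes that act around the complexes were read from lists of their own, beside 25.2% of all genes lower and 23.9% higher with both stimuli. With both stimuli complex I assembly factors had 8 of 13 falls (61.5%) and 0 rises (8 and 0 at an unadjusted p under 0.05, 7 and 0 by DESeq2), complex II assembly factors 2 of 3 and complex III assembly factors 1 of 4. Complex IV assembly factors had 9 falls (47.4%) and 1 rise of 19, and the falls numbered 5 without replicate 1 of both stimuli. Assembly factors and the inhibitor of complex V had 0 of 5, by edgeR, DESeq2 and at an unadjusted p under 0.05. With IFN-γ (background share 16%) the falls were 5, 2, 1, 6 and 0, and with E. coli (background share 16.7%) 0, 1, 0, 4 and 0, by the same order of complexes. Those of complex I with IFN-γ numbered 3 without IFN-γ replicate 2 or 3, and those of complex IV with E. coli 1 without unstimulated library a or b, E. coli replicate 1 or IFN-γ replicate 2 or 3, and 2 without E. coli replicate 2 or 3, IFN-γ replicate 1 or replicate 1 of both stimuli. The fall in complex II with E. coli was lost without a, b or E. coli replicate 1. Rises in these lists were Ttc19 and Cox19 with E. coli and Coa5 with IFN-γ. With IL-4 only Atpif1, the inhibitor of the ATPase activity of complex V, was called.

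Among complex I assembly factors Tmem186 fell by 1.77 with both stimuli and Ndufaf5 by 1.31 with IFN-γ, on the log2 scale. Sdhaf4, which helps flavin-bearing Sdha to assemble, fell with each Type 1 stimulus, with log2 fold changes of -1.09 (E. coli), -1.61 (IFN-γ) and -2.09 (joint). Uqcc3, an assembly factor of complex III, fell by 0.75 with IFN-γ and by 1.16 with both, while Ttc19 rose by 0.71 with E. coli. In complex IV, Coa6, of the copper pathway, was at -1.63 with IFN-γ and -1.65 with both stimuli, Cmc2 at -1.42 with E. coli, Cox19 at 0.66 with E. coli, Coa5 at 0.46 with IFN-γ and Cox17, a copper chaperone, at 0.48 with both. Atpif1 fell by 0.65 with IL-4 (adjusted p = 0.04632), without overlap, and was called only in the full set and without unstimulated library f. Coa5 lost its call without unstimulated library a or IFN-γ replicate 3.

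Genes that express mitochondrial DNA were read against the background shares of falls, 25.2% with both stimuli, 16% with IFN-γ, 16.7% with E. coli and 4.35% with IL-4. The background shares of rises were 23.9%, 15.6%, 13.5% and 5.97% in the same order. Of 76 mitochondrial ribosomal proteins tested 32 fell and 2 rose with both stimuli, 25 and 2 with IFN-γ, and 4 and 5 with E. coli, and with IL-4 1 of 73 fell. That is 42.1% lower with both stimuli, 32.9% with IFN-γ and 5.26% with E. coli, and the medians were -0.50, -0.34, -0.01 and -0.09. The 25 became 15 without unstimulated library a or IFN-γ replicate 2, 16 without b and 14 without IFN-γ replicate 3, and the 4 became 10 without unstimulated library c, 1 without a and 2 without b or E. coli replicate 2. Rises with E. coli became 3 without a or E. coli replicate 3, and the fall with IL-4 was lost without any IL-4 library and joined by another without d. Mrps35 fell by 1.78 and Mrpl45 rose by 1.74 with both stimuli, Mrps11 fell by 1.54 and Mrpl54 rose by 1.14 with IFN-γ, Mrps35 fell by 0.90 and Mrpl41 rose by 1.23 with E. coli, and Mrpl33 fell by 0.51 with IL-4. Of 15 genes that maintain and transcribe mitochondrial DNA or handle its RNA, 7 fell and 1 rose with both stimuli, 1 fell with IFN-γ, 1 with E. coli and 0 with IL-4 (1 at an unadjusted p under 0.05 and 0 by DESeq2). The 7 are 46.7% of the list, and the single falls 6.67%, below the share of all genes. The 7 became 4 without unstimulated library b or replicate 2 of both stimuli, and 3 without its replicate 3. Polg2, the accessory subunit of the DNA polymerase, fell by 2.11 and Slirp, an RNA-binding protein, rose by 0.68 with both, and Tefm, the transcription elongation factor, fell by 0.87 with E. coli and by 0.83 with IFN-γ. Of 9 translation factors 2 fell with both stimuli, 1 with IFN-γ and 1 with E. coli, where 1 rose, and with IL-4 1 of 8 rose, so falls (22.2%, 11.1% and 11.1%) were no more frequent than among all genes. Tsfm fell by 1.55 with both, Oxa1l, which inserts new proteins into the inner membrane, by 0.60 with IFN-γ and by 0.49 with E. coli, Gfm1 rose by 0.45 with E. coli and Gfm2 by 1.95 with IL-4.

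These short lists rest on single calls that some libraries carry. Gfm1 was not called without any unstimulated or E. coli library of the Type 1 set, and Oxa1l with E. coli without a, b, any E. coli or any IFN-γ library. With IFN-γ, Oxa1l was lost without a, b or IFN-γ replicate 1 or 3. Tefm with E. coli was lost without a or E. coli replicate 1 or 3, and with IFN-γ without b, E. coli replicate 1, IFN-γ replicate 1 or replicate 1 or 2 of both stimuli.

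Electron carriers and the enzymes that feed them were called in both directions, 25% of them higher with both stimuli beside 23.9% of all genes. Of 16 tested, 4 rose and 3 fell with both stimuli, 2 and 2 with IFN-γ, 4 and 1 with E. coli, and with IL-4 0 of 18 passed by edgeR or DESeq2 (1 higher at an unadjusted p under 0.05). Of all genes 25.2% fell with both stimuli, 15.6% rose and 16% fell with IFN-γ, and 13.5% rose and 16.7% fell with E. coli. Cycs, cytochrome c itself, rose by 1.47 with both stimuli (adjusted p = 6.83e-09, no overlap) and by 0.73 with IFN-γ. Etfb, which feeds electrons from fat oxidation to ubiquinone, fell by 1.76 with both and by 1.15 with IFN-γ, and with E. coli Pdss1 rose by 0.90 and Coq2 fell by 0.93, both of ubiquinone synthesis. Of 18 genes of the TCA cycle and pyruvate dehydrogenase 7 fell with both stimuli and 4 with IFN-γ, while 4 fell and 2 rose with E. coli and 0 of 16 were called with IL-4 (4 lower at an unadjusted p under 0.05, 2 lower by DESeq2). The falls are 38.9% of the list with both stimuli, beside 25.2% of all genes, and 22.2% with IFN-γ and with E. coli, beside 16% and 16.7%. The 4 with IFN-γ became 2 without unstimulated library a, and the 4 with E. coli 0 without b or E. coli replicate 2 or 3 1 without a or E. coli replicate 1, and 2 without IFN-γ replicate 2. The 2 rises with E. coli became 0 without a and 1 without c or E. coli replicate 1 or 3. Of the electron carriers, the 4 rises with E. coli became 2 without a, the fall there was lost without a or E. coli replicate 1 and became 2 without c. With IFN-γ the 2 rises became 1 without a, b, E. coli replicate 2 or IFN-γ replicate 1 or 3, and the 2 falls 1 without a or IFN-γ replicate 1. Suclg2 fell by 2.99 with both and by 1.10 with E. coli, Idh2 fell by 1.71 with IFN-γ, and Idh3a rose by 0.92 with E. coli.

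Carriers and channels of the mitochondrial membranes rose in 4 of 9 cases and fell in 1 with both stimuli, rose in 4 with IFN-γ and in 1 with E. coli, and fell in 1 of 8 with IL-4. The rises are 44.4% with both stimuli and with IFN-γ, beside 23.9% and 15.6% of all genes, and 11.1% with E. coli, beside 13.5%. Vdac1, the outer membrane channel, rose by 1.71 with both and by 1.32 with IFN-γ, Mpc1, part of the pyruvate carrier, by 0.66 with E. coli, Ucp2 fell by 0.41 with both and Vdac3 fell by 0.86 with IL-4. The 4 with IFN-γ became 2 without unstimulated library a or c or IFN-γ replicate 1 or 3. Regulators of mitochondrial biogenesis rose in 3 of 6 cases with both stimuli, in 1 with IFN-γ and in 2 with E. coli, and fell in 1 with IL-4, or 50%, 16.7% and 33.3% higher beside those same shares of all genes. Gabpb1, a partner of the GABPA factor, rose by 1.11 with both and by 0.56 with IFN-γ, and Pprc1, a coactivator, rose by 1.07 with E. coli and fell by 2.17 with IL-4. The 3 became 1 without unstimulated library a or replicate 3 of both stimuli, the 2 became 1 without a or E. coli replicate 2, and the 1 with IFN-γ was lost without a or IFN-γ replicate 3 and became 2 without c. Vdac3 was not called without library d or any IL-4 library. Falls of carriers with both stimuli became 3 without c, and rises with E. coli 2 without b or IFN-γ replicate 1. Beside the falls in these lists, 25.2% of all genes fell with both stimuli and 4.35% with IL-4.

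A list of 7 genes linked to hypoxia and mitochondria held 5 that were tested in each comparison. All 5 rose with both stimuli and with IFN-γ, beside 23.9% and 15.6% of all genes. With E. coli 2 rose and 1 fell, beside 13.5% of all genes higher and 16.7% lower. With IL-4 3 rose, beside 5.97% of all genes. These 3 became 0 without unstimulated library f or any IL-4 library and 1 without d. Bnip3, which marks mitochondria for removal, stood at 45.1, 44.4 and 47.9 CPM unstimulated, 132, 146 and 163 with E. coli, 616, 832 and 1044 with IFN-γ and 1169, 1072 and 1239 with both stimuli. These groups do not overlap, and its log2 fold changes were 1.68, 4.18 and 4.66 (adjusted p = 4.924e-13 for both stimuli). With IL-4 it rose by 1.45 from 1.11, 3.81 and 3.59 to 7.42, 6.81 and 10.4 CPM, without overlap (adjusted p = 0.04975). Bnip3l, its relative, fell by 0.57 with E. coli, where the 2 rises became 1 without unstimulated library c.

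Markers of other cells moved with the stimuli too, and their part in the results on the subunits was not tested. The 10 eosinophil markers, led by Alox15 or Ccr3, summed to 4061, 5389 and 4229 CPM in unstimulated libraries a to c and to 3903, 3458 and 3851 with E. coli. They came to 4380, 3904 and 4758 with IFN-γ, 3693, 3275 and 3512 with both stimuli, 5441, 6431 and 5530 in libraries d to f, and 5287, 5496 and 5384 with IL-4. The 10 macrophage markers, led by Lyz2, summed to 2140, 1937 and 2057, then to 1099, 1020 and 1780 with E. coli, 2660, 2495 and 2636 with IFN-γ and 2154, 2517 and 2946 with both stimuli. Libraries d to f read 3730, 4037 and 4847 CPM, followed by 2929, 2815 and 3325 with IL-4. The E. coli libraries and those with IL-4 were thus low, and those with IFN-γ high, without overlap with their unstimulated libraries. The 8 neutrophil markers, led by Retnlg, averaged 608, 395, 718 and 588 CPM in the unstimulated, E. coli, IFN-γ and joint groups of the set, and 1880 and 774 without and with IL-4. Ltf was at 0 in unstimulated libraries a to c, with IFN-γ and with both stimuli, and Ngp at 0 with both.

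The 6 B cell markers, led by Ighm, averaged 177, 53.9, 73.3 and 128 CPM in the groups of the Type 1 set and 30.7 and 64.9 in the IL-4 set. The 5 mast cell markers, led by Tpsb2 or Cma1, averaged 7.36, 15.2, 18.1 and 56.2 CPM in the former and 6.87 and 14.4 in the latter. The 5 erythroid markers, led by Hbb-bs, averaged 64.9, 82.5, 98.9 and 130 CPM, then 99.3 and 83.6. The 6 T cell markers, led by Cd3d, stayed at 7.07, 4.83, 4.54 and 5.86, then 4.57 and 3.66 CPM, and the 5 mesothelial markers did not pass 1 CPM on average in any group.

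Single markers with the largest called changes went in mixed directions. With E. coli the eosinophil ribonuclease Ear6 rose by 1.29 and the IL-5 receptor chain Il5ra fell by 1.35, and the neutrophil genes S100a8 and Retnlg were at 3.06 and -1.02. With IFN-γ the transcription factor Gata1 rose by 0.38, Ear6 fell by 0.93, the complement gene C1qb rose by 1.04, Ly6g of neutrophils rose by 2.27, Cd79b of B cells fell by 1.42 and the tryptase Tpsb2 rose by 1.51. Under the joint stimuli Gata1 rose by 0.74 and the lectin Siglecf fell by 1.55, the scavenger receptor Marco rose by 1.33, the neutrophil protease Mmp8 rose by 4.36 and Retnlg fell by 0.90, and the chymase Cma1 and the hemoglobin gene Hbb-bt rose by 3.45 and 1.30. With IL-4 Ear6 rose by 1.34, the chemokine receptor Ccr3 fell by 0.72, Marco by 2.77, Mmp8 by 1.59 and Hbb-bt by 0.84, and Ms4a1 of B cells rose by 1.76.

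Promoter windows of 300 bases, from 250 before to 50 after a gene's start, were available from RefSeq (GRCm38.p6) for 64 of the 76 nuclear members, in 69 windows. They were searched on both strands for NRF1 (GCGCA and GCGC with any base, N, between them), GABPA (CCGGAAG) and YY1 (AAGATGGCG), factors known to control respiratory chain genes, and a match is a description, not a site. NRF1 matched 26.1% of the members' windows against 4.60% of all 32851 windows, GABPA 23.2% against 8.86% and YY1 10.1% against 1.40%. In the 23 windows of members that fell with both stimuli the shares were 34.8%, 21.7% and 8.70%, in the 41 of members not called 24.4%, 26.8% and 12.2%, and in the 5 of members that rose 0, 0 and 0. The following windows are those of Cox7a2, called higher by every Type 1 stimulus, of Ndufb10 and Ndufs6, called lower by each, and of Ndufb7 and Uqcr11, the members of complexes I and III that fell most with IFN-γ. They are shown so that the members which moved against each other can be compared base by base, 5′ to 3′ along the gene's strand, with matches in capitals. They lie at chr9:79759804-79760103 (minus strand), chr17:24724374-24724673 (minus), chr13:73328433-73328732 (minus), chr8:83566508-83566807 (plus) and chr10:80406772-80407071 (minus). The Ndufs6 window holds NRF1 at base 235, on the opposite strand as printed, and YY1 at 284, that of Ndufb7 GABPA at 231 and that of Uqcr11 GABPA at 185, while Cox7a2 and Ndufb10 hold none of the 3. Of members not shown that fell with IFN-γ and under the joint stimuli, Ndufa13, Ndufa7, Ndufb3, Ndufb5, Ndufb8 and Atp5g1 hold none either, and Ndufs7, Atp5k and Atp5c1 hold at least 1.
Cox7a2: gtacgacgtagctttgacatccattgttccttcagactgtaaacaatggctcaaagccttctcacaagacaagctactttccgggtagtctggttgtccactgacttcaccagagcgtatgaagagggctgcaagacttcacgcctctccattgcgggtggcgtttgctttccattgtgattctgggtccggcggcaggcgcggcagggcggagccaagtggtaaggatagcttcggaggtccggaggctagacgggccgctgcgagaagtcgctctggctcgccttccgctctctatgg
Ndufb10: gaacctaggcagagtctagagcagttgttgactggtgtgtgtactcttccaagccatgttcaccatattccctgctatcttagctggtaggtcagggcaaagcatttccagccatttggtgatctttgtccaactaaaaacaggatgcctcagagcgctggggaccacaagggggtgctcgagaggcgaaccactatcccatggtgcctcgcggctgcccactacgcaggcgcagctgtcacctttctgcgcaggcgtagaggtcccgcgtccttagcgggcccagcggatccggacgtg
Ndufs6: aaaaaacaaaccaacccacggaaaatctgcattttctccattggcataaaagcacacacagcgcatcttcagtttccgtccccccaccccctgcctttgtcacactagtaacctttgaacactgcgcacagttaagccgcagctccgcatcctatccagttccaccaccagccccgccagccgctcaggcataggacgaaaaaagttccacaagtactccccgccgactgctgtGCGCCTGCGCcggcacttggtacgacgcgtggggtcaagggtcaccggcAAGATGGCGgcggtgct
Ndufb7: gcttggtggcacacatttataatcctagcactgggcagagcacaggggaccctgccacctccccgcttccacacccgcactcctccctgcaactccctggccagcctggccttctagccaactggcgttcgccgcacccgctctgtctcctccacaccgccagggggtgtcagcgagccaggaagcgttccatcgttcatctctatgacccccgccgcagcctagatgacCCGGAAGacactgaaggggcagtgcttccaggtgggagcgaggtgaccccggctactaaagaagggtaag
Uqcr11: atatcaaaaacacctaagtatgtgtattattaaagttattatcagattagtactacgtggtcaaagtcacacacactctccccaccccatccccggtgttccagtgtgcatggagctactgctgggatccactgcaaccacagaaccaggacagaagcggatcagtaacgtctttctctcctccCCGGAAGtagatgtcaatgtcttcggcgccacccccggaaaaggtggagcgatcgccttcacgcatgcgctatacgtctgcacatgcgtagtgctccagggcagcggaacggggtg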

How the data were processed

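The authors deposited whole counts per Ensembl gene for each library, without normalization. The study names CEL-Seq2 and RNA-seq, TopHat2 2.1.0, HTSeq 0.6.1, fastp 0.20.1 and STAR 2.7.2a on GRCm38, without assigning libraries. In the Type 1 set no gene count exceeds 4096, the number of identifiers of 6 bases. Whether identifiers were collapsed is not stated. Rows that hold no gene were left out.

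Genes kept by filterByExpr were normalized by TMM and tested with edgeR 4.0.16 (quasi-likelihood, Benjamini-Hochberg over all genes tested) in R 4.3.3, with a model for each set, each stimulus against the unstimulated libraries of its own set, and a model of all 18 libraries for the difference between IL-4 and both Type 1 stimuli. DESeq2 1.42.0 was an alternative. SE are approximate, the log2 value divided by the square root of F. Positions and gene types are from GENCODE M21, to which 98.4% and 99.9% of the genes of the sets matched, and copies were searched with blastn 2.17.0 at 95% identity over 200 bases.

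Named genes are every mitochondrially encoded member, core subunits (Ndufs1, Ndufv1, Sdha, Sdhb, Uqcrc1, Uqcrfs1, Cyc1, Cox5a, Atp5a1, Atp5b), for each stimulus and complex the called member with the largest rise and fall without overlap, members called in opposite directions, and of each list the called gene with the largest rise and fall. Other members called were named after their values were seen. The members and lists were chosen with earlier results of these data known. The lists are the assembly factors of each complex, ribosomal proteins, translation factors, DNA and RNA maintenance, biogenesis regulators, electron carriers and feeders, the TCA cycle, carriers and channels, hypoxia-linked genes, subunits left out by the symbol rule, and markers of 8 cell types.

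The alternatives were DESeq2 and its size factors, library totals, other filters, a fold of at least 2, leaving out each library, only the libraries compared, the replicate number as a block, mitochondrial genes left out, correction for identifier collisions, and genes above 2048 counts left out.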

Additional observations from a re-analysis of the deposited data

Results flagged for a closer look

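The response to IL-4 and the response to IFN-γ with E. coli, each against the unstimulated libraries of its own set, differed by a test of the difference itself in a model of all 18 libraries. The log2 response to IL-4 was the higher for 10 nuclear members (13.2%, beside 18.5% of all genes) and the lower for 9 (11.8%, beside 20.7%). These became 25 and 3 scaled by library totals and 17 and 5 with at least 10 counts in every library. It was the lower for 1 mitochondrially encoded member, mt-Co1, at -0.72, whose count lies near the limit in the Type 1 set and whose call was lost without unstimulated library a, c or e or replicate 1 of both stimuli. Without unstimulated library b this 1 became 5, without f 3, and without E. coli replicate 2 or 3 or IFN-γ replicate 3 it became 2. The 10 became 6 without a or b, and the 9 became 14 without d. The difference was -0.98 for Atp5b, which fell with IL-4 and rose with both Type 1 stimuli, and -1.29 for Cox7a2, which rose with both Type 1 stimuli and was not called with IL-4. It was 1.11 for Ndufb10 and 0.94 for Ndufs6, which fell with both Type 1 stimuli and were not called with IL-4. The sets differ in file layout and in the genes they count fully, so a difference between the responses and one between the sets cannot be told apart.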

How the results depend on the processing

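Over settings that keep all libraries, 441 of 505 values of members by genome kept their direction and stayed within 1.5 times the count or the spread between replicates, 15 moved up, 1 of them to the other sign, and 49 moved down. With 1 library left out it was 445 of 504, with 16 up and 43 down. DESeq2's size factors, filters at a mean of 1 or 20 CPM, and leaving out mitochondrial genes moved none of the values by genome (42, 42, 42 and 21). For complexes and lists 2486 of 2764 values were unchanged, 129 moved up and 149 down, of which library totals moved 55 up and 34 down among 320, and with 1 library left out it was 3448 of 3852, with 123 up and 281 down. The values by genome that moved follow, and the cause was not tested.

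Asking for a 2-fold change as well left 0 mitochondrially encoded members higher with IFN-γ, with both stimuli and for both stimuli against IFN-γ, 1 for both against E. coli, and 0 lower for IL-4 against both. Nuclear members higher were then 1 with E. coli, 0 with IFN-γ, 1 with both, 0 for both against E. coli and against IFN-γ and 2 for IL-4 against both. Those lower were 0 with E. coli, 0 with IFN-γ, 3 with both, 1 for both against E. coli, 0 against IFN-γ, 0 with IL-4 and 1 for IL-4 against both.

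Scaled by library totals, nuclear members lower were 7 with E. coli, 31 with IFN-γ, 46 with both, 51 for both against E. coli, 0 with IL-4 and 3 for IL-4 against both. Nuclear members higher were 3 with both, 0 for both against E. coli, 0 against IFN-γ and 25 for IL-4 against both. Mitochondrially encoded members were 4 higher with both, and 0 lower for both against IFN-γ and for IL-4 against both. The nuclear median was -0.43 with both and -0.43 for both against E. coli, and for IL-4 against both it reversed to 0.36, while the mitochondrial median was 0.39 for both against E. coli and -0.13 for IL-4 against both.

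With at least 10 counts in every library, mitochondrially encoded members were 4 higher with both, 0 lower for both against IFN-γ and 0 lower for IL-4 against both, and nuclear members 7 lower with E. coli and 17 higher and 5 lower for IL-4 against both. At a mean of 5 CPM in each set, mitochondrially encoded members higher were 0 with IFN-γ, 3 with both, 5 for both against E. coli and 0 against IFN-γ. Without a filter, mitochondrially encoded members were 7 higher with IFN-γ and 1 lower with E. coli, and nuclear members 0 higher for both against IFN-γ, 6 lower with IL-4 and 5 lower for IL-4 against both. By DESeq2, nuclear members lower were 13 for both against E. coli, and mitochondrially encoded ones 0 for both against IFN-γ and 2 for IL-4 against both. With the 6 compared libraries alone, 4 mitochondrially encoded members were higher with both, 0 lower for both against IFN-γ, and 0 nuclear members higher there.

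With the replicate number as a block 2 nuclear members were higher for both against IFN-γ, and in the same 9 libraries without the block 0 mitochondrially encoded members were lower. Correlations of same-numbered libraries were 0.00287, 0.169 and -0.013 between E. coli and IFN-γ, 0.0651, 0.0926 and 0.153 between E. coli and both, and -0.0465, 0.197 and 0.318 between IFN-γ and both. Corrected for identifier collisions, 6 mitochondrially encoded members were higher with IFN-γ, and the median for both against E. coli was 0.44. With genes above 2048 counts left out, those higher were 1 with IFN-γ, 2 with both and 2 for both against E. coli. Both of these alternatives were chosen after seeing the data.

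Leaving out each library in turn gave these ranges. Nuclear members higher were 2 to 14 with E. coli, 2 to 5 with IFN-γ, 4 to 11 with both, 0 to 2 for both against IFN-γ, 2 to 3 for both against E. coli, 0 to 1 with IL-4 and 6 to 14 for IL-4 against both. Those lower were 1 to 9, 4 to 17, 15 to 23, 1 to 6, 12 to 24, 0 to 3 and 7 to 14 in the same order. Mitochondrially encoded members higher were 2 to 10 with IFN-γ, 4 to 11 with both and 7 to 11 for both against E. coli, and those lower 0 to 1 for both against IFN-γ and 0 to 5 for IL-4 against both. The nuclear median was -0.00 to 0.17 with E. coli, -0.18 to -0.00 with IFN-γ and -0.25 to -0.03 with both, and the mitochondrial median 0.29 to 0.69 with both.

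Depth limits members with few counts, such as Cox7a1 and mt-Nd6, and mt members absent from the IL-4 set could not be fitted there.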
